A study of Saccharomyces cerevisiae with 16 samples.

Results

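The comparison described here is that of untreated *ubc9-6* yeast with untreated wild type (WT), by the peak lists of RNA polymerase II (RNAPII) ChIP-seq in *Saccharomyces cerevisiae*. The lists were chosen by their labels, as RNAPII immunoprecipitates from cells kept at 30 °C, and comprise 4 of the 8 peak lists in a series of 16 samples: WT replicates 1 and 2 and *ubc9-6* replicates 1 and 2. WT cells were strain W303a, which carries mutant alleles of *ADE2*, *CAN1*, *HIS3*, *LEU2*, *TRP1* and *URA3*. The *ubc9-6* cells were derived from W303 and hold a tandem repeat of a mutant *ubc9* allele, marked with *TRP1*, at the *UBC9* locus. Antibody 8WG16, which recognizes the Rpb1 subunit of RNAPII, was used in all 4 samples. The other 4 lists come from the same strains after 12 min at 37 °C and are used here only for side values.

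Ubc9 is the only SUMO-conjugating enzyme of yeast. It attaches the small protein SUMO, encoded by *SMT3*, to lysines of target proteins, many of which act in transcription. RNAPII transcribes all protein-coding genes, and the study takes the 8WG16 signal over an open reading frame (ORF) as RNAPII density. Whether this signal depends on anything besides the amount of polymerase was not tested. An ORF without a peak need not be free of polymerase. Ribosomal protein genes (RPGs) are among the most heavily transcribed genes of growing yeast, and genes for the translation machinery and for ribosome assembly are known to be regulated with growth, whereas genes for amino acid synthesis are known to respond to supply of their products.

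An ORF, from start to stop codon in the R64 (sacCer3) annotation, counted as occupied if peaks of the list covered 0.5 of its length or more. The 4 lists held between 1451 and 1525 peaks that covered between 25% and 25.4% of the nuclear genome, so the covered length was nearly equal. The lists do not give read numbers, and the depth behind a value is unknown. A peak over several ORFs gives all of them a value, and 26.2% to 28.7% of the peaks held at least 0.5 of more than 1 ORF. The lists of a strain overlapped more with each other (Jaccard index over base pairs of 0.708 for WT and 0.797 for *ubc9-6*) than lists of different strains did (0.507 to 0.556). *UBC9* itself (YDL064W, chromosome IV, 337487 to 338070) had a covered share of 0 in all 4 lists, so the labels could not be checked at the mutated gene. The allele difference at *TRP1* gave no difference in call, with covered shares of 0.876 and 0.874 in WT and 1 and 0.988 in *ubc9-6*.

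Non-RPG ORFs were occupied in similar numbers, while their identity differed. Of 5865 non-RPG ORFs, 1658 and 1633 were occupied in the WT lists and 1536 and 1591 in the *ubc9-6* lists. The means were 1646 ± 17.7 and 1564 ± 38.9 (SD, n = 2), and the difference of -82.0 had p = 0.333 in an exact two-sided permutation test, the smallest p that 2 lists against 2 can give. The occupancy of single ORFs was not tested, and the calls that follow are counts of ORFs whose lists did not overlap between strains. An ORF was called gained when occupied in both *ubc9-6* lists and in neither WT list, and lost in the reverse case. Over all ORFs, 333 of 4081 that were free in both WT lists were gained (8.16%), and 261 of 1433 that were occupied in both WT lists were lost (18.2%). RPGs made up 93 of the gained ORFs and 0 of the lost. Among non-RPGs, 240 of 3988 were gained (6.02%) and 261 of 1414 were lost (18.5%). A further 1032 non-RPG ORFs were occupied in all 4 lists, 3624 in none and 708 in a mixture of lists. The percentages 6.02% and 18.5% are the background against which the gene groups below are to be read. Groups were lists of named genes chosen with earlier results of these data known, and their counts carry no test.

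Genes of the translation machinery were gained. Of 64 ribosome biogenesis factors, 1 was occupied in each WT list, against 14 and 13 in the *ubc9-6* lists, and 12 of 63 that could be gained were gained (background 6.02%). They included the proteins of the box C/D small nucleolar ribonucleoprotein that methylates ribosomal RNA, *NOP1*, *NOP56* and *NOP58*, and the proteins *CBF5*, *GAR1* and *NHP2* of the box H/ACA particle that isomerizes uridine. *NOP56* (YLR197W, chromosome XII, 546097 to 547611) had covered shares of 0 and 0 in WT and 0.893 and 0.925 in *ubc9-6*. For *NOP58* the shares were 0 and 0 against 0.982 and 0.996, and for *CBF5* 0 and 0 against 1 and 1. These 3 genes lay alone under their peaks, so that the WT lists had no peak at these genes and the *ubc9-6* lists had one over nearly the whole ORF. *NSR1*, which encodes nucleolin, the helicase gene *DBP2* and the GTPase gene *NOG2* were also gained, as were *NOP15*, *RPF1* and *TIF6*. The 12 genes did not all stand alone. For 6 of them the peaks also covered an ORF occupied in all 4 lists, and *GAR1* and *RPF1* lay under the same peaks, as did *DBP2* and *NOP15*. Peaks over these genes differed in strength. That over *NOP56* ranked at percentile 33.6 and 36.5 of fold enrichment within its own list, that over *NOP1* at 69.9 and 61.2, and that over *GAR1* at 83.0 and 85.5.

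The promoters of 4 gained genes are shown with the motifs known as PAC (GATGAG) and RRPE (AAAATTT), found on either strand, in capitals. They are the 250 bases before the start codon in R64, as RefSeq gives the sequence, each written 5′ to 3′ on the strand of the gene.
NOP1 (chrIV:427114-427363, plus strand): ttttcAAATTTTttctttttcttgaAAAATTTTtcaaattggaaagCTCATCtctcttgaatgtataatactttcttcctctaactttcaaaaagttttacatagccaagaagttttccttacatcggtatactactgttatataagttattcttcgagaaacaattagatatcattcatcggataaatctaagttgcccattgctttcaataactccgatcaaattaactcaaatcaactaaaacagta
NOP56 (chrXII:545847-546096, plus strand): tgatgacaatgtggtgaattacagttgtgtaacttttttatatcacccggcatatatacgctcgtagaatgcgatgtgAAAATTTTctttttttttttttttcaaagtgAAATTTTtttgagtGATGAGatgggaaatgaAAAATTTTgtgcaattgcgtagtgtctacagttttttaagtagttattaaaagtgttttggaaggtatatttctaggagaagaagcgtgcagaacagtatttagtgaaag
NSR1 (chrVII:807657-807906, minus strand): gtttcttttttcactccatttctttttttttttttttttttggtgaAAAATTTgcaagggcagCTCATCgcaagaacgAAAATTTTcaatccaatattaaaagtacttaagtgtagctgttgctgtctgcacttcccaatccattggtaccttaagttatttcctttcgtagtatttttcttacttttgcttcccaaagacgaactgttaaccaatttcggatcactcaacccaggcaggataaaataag
RPA34 (chrX:140187-140436, plus strand): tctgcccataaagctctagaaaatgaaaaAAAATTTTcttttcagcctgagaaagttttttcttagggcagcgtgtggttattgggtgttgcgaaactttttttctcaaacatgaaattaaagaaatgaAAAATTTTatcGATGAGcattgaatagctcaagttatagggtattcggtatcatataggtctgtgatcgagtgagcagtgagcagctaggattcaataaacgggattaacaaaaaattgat
PAC and RRPE are motifs known from promoters of ribosome assembly genes. RRPE was found in 12 of 12 promoters of gained ribosome biogenesis factors and in 52 of 52 promoters of those not gained, and PAC in 12 of 12 and 46 of 52. The motifs therefore marked the whole group and did not separate its gained members. Of all 6001 ORF promoters of this length, 21.7% held RRPE and 17% held PAC. Among gained non-RPGs as a whole the shares were 40% and 23.8%, among lost non-RPGs 16.1% and 13.8%, and among the non-RPGs occupied in all 4 lists 17.1% and 14.5%. A match is a description of letters only.

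Subunits of the RNA polymerases themselves were among the gained ORFs. For RNA polymerase I, which transcribes ribosomal RNA, 3 of 8 subunits that could be gained were gained: *RPA34*, *RPC40* and *RPC19*, the last 2 of which also belong to RNA polymerase III. *RPC19* lay under the same peaks as *DBP2* and *NOP15*, so this place gave calls to both groups. Of the 10 other subunits of RNA polymerase III that could be gained, 1 was, *RPC11*, under peaks that also covered *BAP3*. That share is close to the background of 6.02%. *RPA34* (YJL148W, chromosome X, 140437 to 141138) had covered shares of 0 and 0 in WT and 1 and 1 in *ubc9-6*, under peaks with a fold of 8.69 and 8.32 that stood at percentile 99.6 and 99.7. It was the stand-alone gained gene with the strongest peaks, and the same peaks held the small nucleolar RNA genes *SNR128* and *SNR190*, whose part in the signal was not tested. For RNAPII, 3 of 4 were gained, *RPB2*, *RPB5* and *RPB8*, and 5 were gained when only peaks with −log10 q of at least 5 or the top 1000 peaks of each list were used. *RPB2*, the second largest subunit, had shares of 0.0933 and 0.286 in WT and 1 and 1 in *ubc9-6*. *RPB5* and *RPB8* had 0 in both WT lists and shares of 0.769 and 1 or of 1 and 1 in *ubc9-6*. Of the 11 RNAPII subunits in the list, 6 were already occupied in both WT lists. Each subunit was counted under 1 polymerase only, also where polymerases share it, so these lists do not hold every subunit.

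Of 27 translation initiation factors, 6 and 7 were occupied in WT and 20 and 18 in *ubc9-6*. Of the 20 that could be gained, 10 were, 4 of them standing alone, and 0 were lost. They were the eIF4A genes *TIF1* and *TIF2*, *TIF5* (eIF5), *TIF11* (eIF1A), *GCD11* (the gamma subunit of eIF2), 4 genes of eIF3 (*RPG1*, *PRT1*, *NIP1* and *TIF35*), and *PAB1*, which encodes the poly(A)-binding protein. *TIF5* had covered shares of 0 and 0 against 1 and 1, and *NIP1* the same. *PAB1* had 0 and 0.349 against 1 and 1, and *TIF2* 0.384 and 0.319 against 1 and 1, so the WT lists held a peak over part of these ORFs. *RPG1* had shares of 0.0888 and 0.0674 against 1 and 1, with *ubc9-6* peaks at percentile 87.6 and 87.5 that also covered the cell wall gene *ECM33*.

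Elongation and release factors gave 5 gained ORFs of 7 that could be gained, or 2 when 0.25 of the ORF counted as occupied. They were *EFT1* and *EFT2* (elongation factor 2), *YEF3* (elongation factor 3), and *SUP35* and *SUP45*, the release factors. *EFT1* and *EFT2* encode the same protein from nearly identical sequences, and so reads may be shared between them. *EFT1* had covered shares of 0.34 and 0.224 against 1 and 1 and *EFT2* of 0.446 and 0.333 against 1 and 1. *YEF3* had 0 and 0.452 against 1 and 1, under peaks with a fold of 5.25 and 4.01. Of the chaperones and factors that bind the ribosome, 4 of 5 were gained, the Hsp70 genes *SSB1* and *SSB2*, *STM1*, which encodes a ribosome preservation factor, and *ASC1*, the yeast homolog of RACK1. *SSB1* and *SSB2* are also a near-identical pair. *SSB1* had shares of 0 and 0 against 1 and 1 with peaks at percentile 91.1 and 88.2. *ASC1* had 0.216 and 0 against 1 and 1 with peaks at percentile 96.3 and 95.2, and its intron holds *SNR24*, so signal of the small nucleolar RNA and of its host cannot be told apart. Among 19 aminoacyl-tRNA synthetases, 1 and 3 were occupied in WT and 13 and 8 in *ubc9-6*. The 5 of 16 gained in both replicates were *FRS1*, *FRS2*, *MES1*, *SES1* and *WRS1*. The number was 10 without *ubc9-6* replicate 2, and 3 with only the top 1000 peaks of each list or peaks with −log10 q of at least 5. *SES1* and *FRS1* lay beside an RPG (*RPS11A* and *RPL22A*) under the same peaks. *MES1* stood alone with shares of 0 and 0 against 1 and 0.512.

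**Figure D1:**
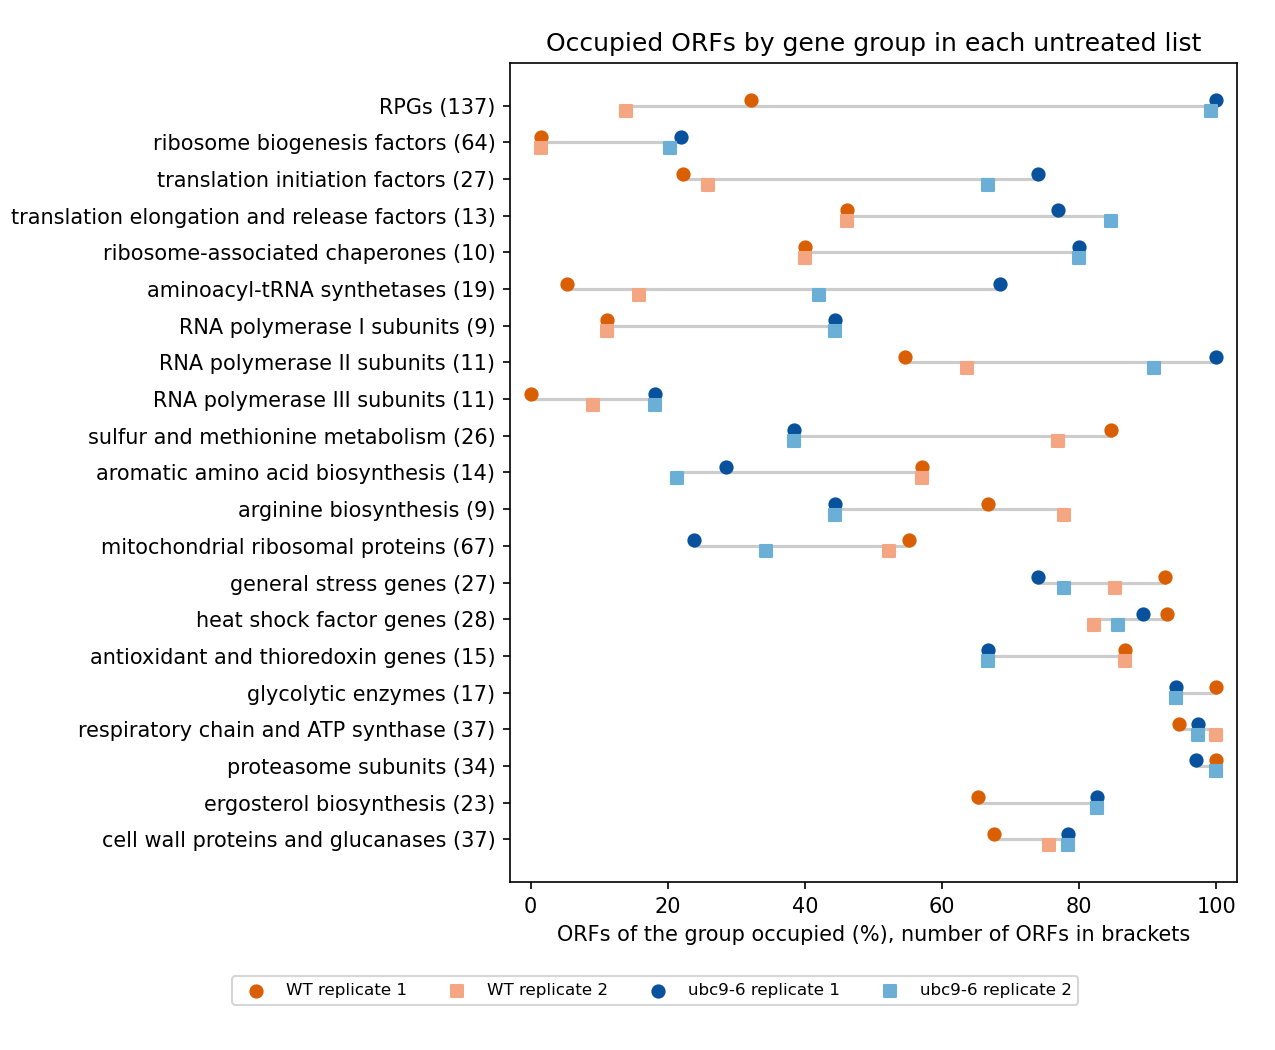
The share of the ORFs of each gene group that was occupied (x axis, percent) in each of the 4 untreated lists, WT in orange and *ubc9-6* in blue. The *ubc9-6* points lie to the right of both WT points for the translation and polymerase groups and to the left for the sulfur, aromatic and arginine groups, and all points lie close together for glycolysis, respiration and the proteasome.

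**Figure D2:**
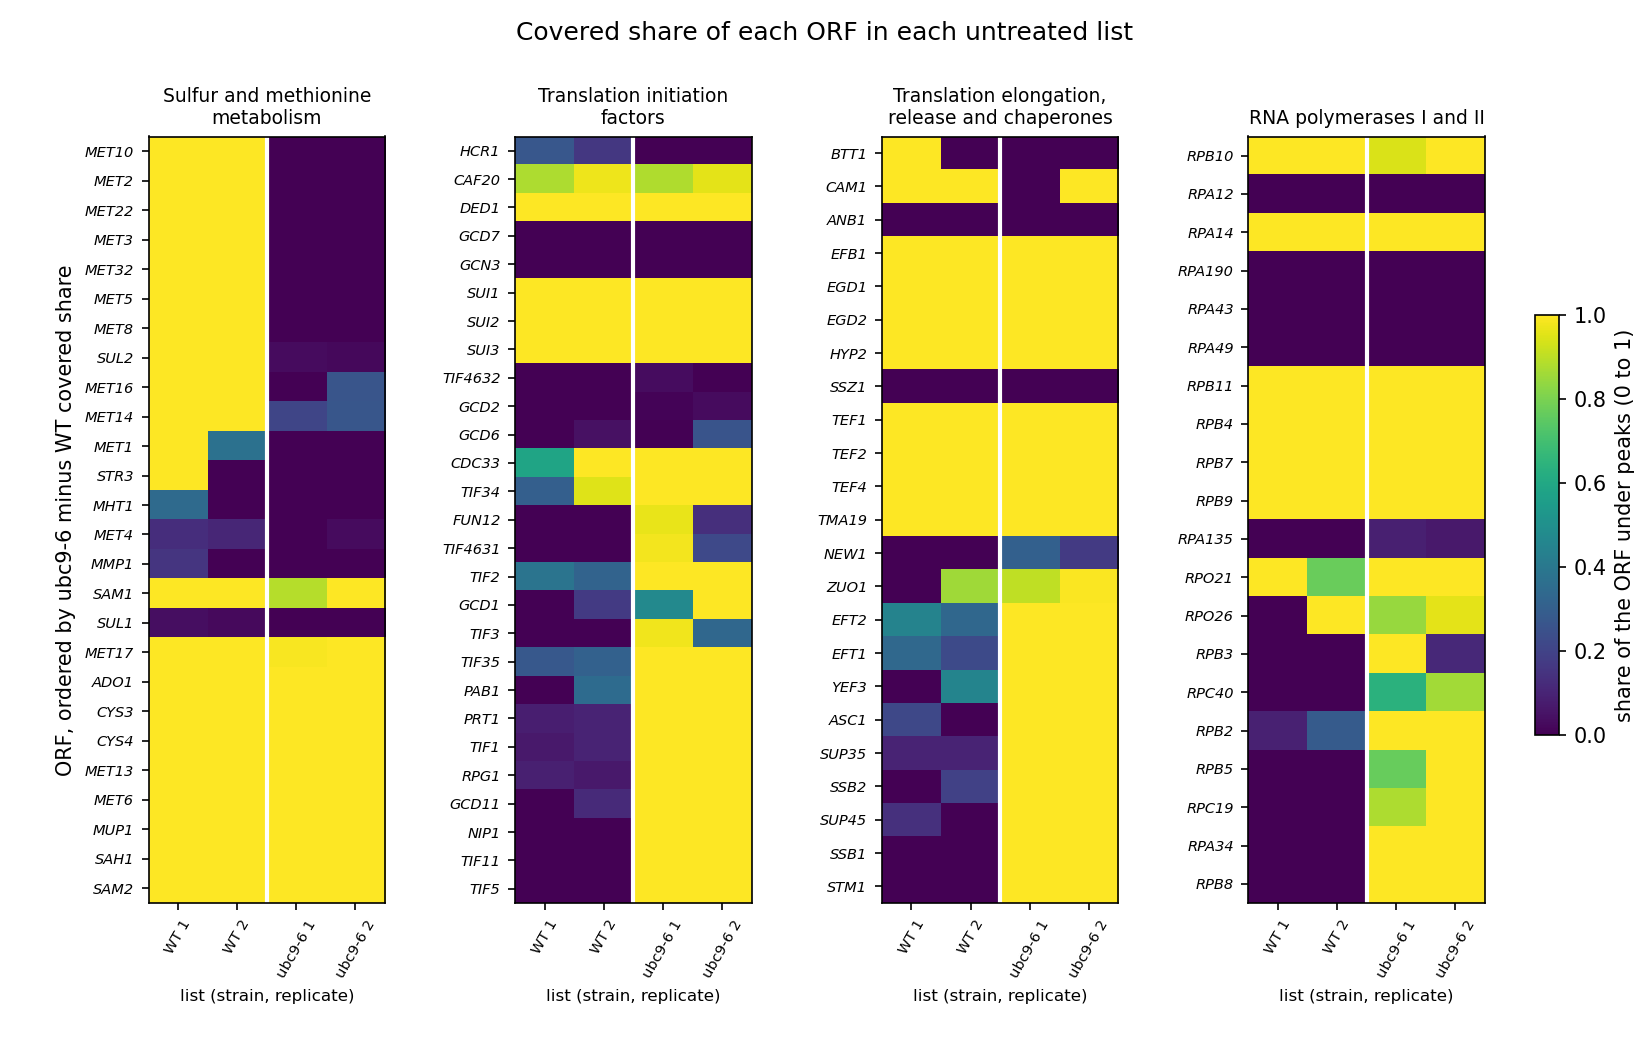
The covered share (0 to 1, color) of every ORF in 4 gene groups, with a column per list and ORFs ordered by the difference between strains. The lost sulfur genes lie at the top with full cover in WT and little or none in *ubc9-6*, and the gained translation and polymerase genes at the bottom with the reverse.

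RPGs are described here only as the setting of the other calls. The 2 WT lists themselves differed at them, with 44 and 19 of 137 occupied, against 137 and 136 in *ubc9-6*. All 93 RPGs that were free in both WT lists were gained, and 77 of them had no base pair under a WT peak. Beyond RPGs, 3 of 5 CCT chaperonin genes that could be gained were gained (*CCT4*, *CCT5* and *CCT7*), a group added after its values were seen. The chaperonin folds actin and tubulin. *CCT7* had covered shares of 0.183 and 0.186 against 1 and 1.

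Genes of sulfur assimilation and methionine synthesis were lost. Of 26 genes, 22 and 20 were occupied in WT and 10 in each *ubc9-6* list. Of the 20 that could be lost, 10 were lost, against a background of 18.5%, and 0 were gained. The lost genes include the steps from sulfate uptake to sulfide. *SUL2* encodes a sulfate permease, *MET3* ATP sulfurylase, *MET14* adenylylsulfate kinase, *MET16* phosphoadenylylsulfate reductase, *MET5* and *MET10* both subunits of sulfite reductase, *MET8* an enzyme of its siroheme cofactor, *MET22* a phosphatase that removes the by-product of the pathway, *MET2* homoserine acetyltransferase and *MET32* a DNA-binding regulator. *MET3* (YJR010W, chromosome X, 456239 to 457774) had covered shares of 1 and 1 in WT and 0 and 0 in *ubc9-6*. *MET2*, *MET5*, *MET8*, *MET10*, *MET22* and *MET32* had the same 4 values. *MET14* had 1 and 1 against 0.21 and 0.268, and *MET16* 1 and 1 against 0 and 0.263. Their WT peaks were above the middle of the list except for *MET32*, with *MET14* at percentile 86.1 and 88.8, *MET2* at 84.5 and 83.2, and *MET32* at 46.2 and 33.6.

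Of the other 16 members of the sulfur group, 10 stayed occupied. *MET6* (methionine synthase), *MET13*, *MET17*, *SAM1*, *SAM2*, *SAH1*, *CYS3*, *CYS4*, *ADO1* and the permease gene *MUP1* were occupied in all 4 lists. *STR3* and *MET1* were occupied in WT replicate 1 and in no other untreated list, so the WT replicates differed on them. The last 4, *MET4*, *SUL1*, *MMP1* and *MHT1*, were occupied in no untreated list.

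The promoters of 3 lost sulfur genes are shown because they hold the E-box CACGTG, the binding motif of Cbf1, in capitals. They are again the 250 bases before the start codon in R64 from RefSeq, 5′ to 3′ on the strand of the gene.
MET10 (chrVI:213062-213311, plus strand): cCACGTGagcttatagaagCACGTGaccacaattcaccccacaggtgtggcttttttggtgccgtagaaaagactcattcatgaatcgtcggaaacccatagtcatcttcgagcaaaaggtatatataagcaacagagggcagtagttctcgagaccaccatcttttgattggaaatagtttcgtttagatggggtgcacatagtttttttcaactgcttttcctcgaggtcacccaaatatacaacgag
MET14 (chrXI:439386-439635, minus strand): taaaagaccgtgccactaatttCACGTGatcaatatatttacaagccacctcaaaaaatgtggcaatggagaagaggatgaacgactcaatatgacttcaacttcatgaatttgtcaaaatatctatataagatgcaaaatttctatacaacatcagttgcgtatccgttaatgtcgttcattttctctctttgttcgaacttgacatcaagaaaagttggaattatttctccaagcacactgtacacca
MET16 (chrXVI:877633-877882, minus strand): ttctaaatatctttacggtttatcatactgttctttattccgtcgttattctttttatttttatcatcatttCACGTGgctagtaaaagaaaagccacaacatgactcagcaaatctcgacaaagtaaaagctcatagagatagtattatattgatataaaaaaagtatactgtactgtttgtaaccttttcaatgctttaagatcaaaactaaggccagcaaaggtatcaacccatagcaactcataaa
The E-box was found on either strand (it reads the same on both) in 5 of the 10 lost sulfur genes (*MET8*, *MET10*, *MET14*, *MET16* and *MET22*), in 2 of the 16 not lost, and in 2.73% of all ORF promoters. The Met31 and Met32 motif AACTGTGG was in 0 of the 10 and in 4 of the 16, against 0.767% of all. Among lost non-RPGs as a whole, the Gcn4 motif TGACTC was in 12.6% and the stress response element CCCCT in 34.1%, against 6.25% and 18.8% of all promoters. The non-RPGs occupied in all 4 lists held them in 6.88% and 27.9%, and the gained non-RPGs in 3.33% and 15.0%.

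Further amino acid genes were lost in smaller numbers. Of the aromatic pathway, 8 genes were occupied in each WT list and 4 and 3 in *ubc9-6*. The 3 lost of 7 were *TRP3*, *TRP4* and *TRP5*, all enzymes of tryptophan synthesis. The strains also differ at *TRP1*, mutant in WT and the marker in *ubc9-6*, so marker and *ubc9* allele cannot be told apart here. *TRP5* had covered shares of 1 and 1 against 0.438 and 0.279, close under the threshold in 1 list, while *TRP3* had 1 and 1 against 0.159 and 0.126. Of the arginine genes 2 of 6 were lost. *ARG7*, which was among these, had shares of 1 and 1 against 0 and 0. *LYS1*, the last enzyme of lysine synthesis, had 1 and 1 against 0 and 0, and was 1 of 3 lysine genes that could be lost. Of the branched-chain genes 1 of 8 was lost, the transaminase gene *BAT2*, and of the glutamate, serine and threonine genes 3 of 14, *SER1*, *SER33* and *THR1*, which is close to the background of 18.5%. Histidine genes gave 0 gained and 0 lost, and in each list 3 of 7 were occupied. Among amino acid permeases both directions occurred. *AGP2* and *MUP3* were lost, 2 of 11, which is close to the background of 18.5%. *TAT1*, *TAT2* and *GNP1* were gained, 3 of 7, against a background of 6.02%. *TAT1* and *TAT2* transport tryptophan and tyrosine, and the gained permeases all lay under peaks shared with an ORF occupied in all 4 lists. The *TRP1* difference between the strains applies to these permeases too. *IMD2* and *IMD4*, paralogous genes for IMP dehydrogenase of guanine synthesis, went in opposite directions. *IMD2* had covered shares of 1 and 1 against 0.158 and 0.153, and *IMD4* of 0 and 0.184 against 1 and 1.

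Stress genes gave few calls. Of 28 targets of heat shock factor, 26 and 23 were occupied in WT and 25 and 24 in *ubc9-6*, and *SSA4*, an inducible Hsp70 gene, was the only one lost. *SSA4* had covered shares of 1 and 1 against 0 and 0 under WT peaks at percentile 86.6 and 30.6. General stress genes gave 3 lost of 23, among them *GSY2* and *GLC3* of glycogen synthesis. This is below the background of 18.5%. Of the antioxidant genes, 3 of 13 were lost, the peroxidase genes *TSA2* and *CCP1* and *GSH1* of glutathione synthesis. That share is close to the background of 18.5%.

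Mitochondrial ribosomal protein genes were among the lost ORFs, a group added after its values were seen. Of 67 genes, 37 and 35 were occupied in WT and 16 and 23 in *ubc9-6*, and 14 of the 32 that could be lost were lost, against a background of 18.5%. The 2 gained genes of the group, *MRP13* and *RSM27*, lay under peaks that also covered the RPGs *RPL11B* and *RPS0A*. Peaks over several lost genes were weak in WT. Those over *MRPL16* ranked at percentile 11.1 and 11.8, and the covered shares of *MRPL16* were 1 and 0.648 against 0.395 and 0.262. *RSM19* had stronger peaks, at percentile 92.1 and 71.9, and shares of 1 and 1 against 0 and 0. With only the top 1000 peaks of each list by −log10 q, the number lost was 9.

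Several heavily transcribed groups kept most of their occupancy. Occupancy does not measure strength, so an ORF under a weaker peak still counts as occupied. Glycolytic enzymes were occupied in all 4 lists in 16 of 17 cases, genes of the respiratory chain and ATP synthase in 35 of 37 and proteasome subunits in 33 of 34. Ergosterol genes gave 15 of 23 and cell wall genes 25 of 37. In these 5 groups 1 ORF was gained, *CWP1*, a cell wall mannoprotein gene with covered shares of 0 and 0 against 1 and 1 that lay beside *CWP2*, and 0 were lost. Of the SUMO pathway only *SMT3* was occupied, in all 4 lists. Of the non-RPGs that the study places at SUMO peaks, 165 were used here, which is not the whole of its list. Of these 98 were occupied in all 4 lists, 9 of 49 were gained and 8 of 109 were lost. The SUMO peaks were defined in other samples than these. The share lost was below the background of 18.5%, and the share gained above that of 6.02%. In the comparison of peak strength described below, 13 of the 98 were lower and 2 higher, against 18.4% and 5.71% of all ORFs tested. By read density over ORFs, the study reports reduced RNAPII at a larger share of its SUMO peak genes than of all genes. Lost calls do not measure density and are not set against that result. The gained ones included *NRD1*, *TIF2*, *SUP45* and *EFT2* and the lost ones *LYS1*, *MET5*, *MET14* and *IMD2*.

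The peaks behind the calls differed in kind. Of the 240 gained non-RPGs, 35 lay beside an RPG, in that the *ubc9-6* peaks over them also held at least 0.5 of an RPG, and 96 shared peaks with a non-RPG occupied in all 4 lists. The other 109 stood alone, in that their peaks held at least 0.5 of no RPG and of no ORF occupied in all 4 lists. Stand-alone has this sense throughout, and other ORFs could share such peaks, as *MRPL17* did with *NRD1*. Of the 261 lost non-RPGs, 154 stood alone, 101 shared a WT peak with an ORF occupied in all 4 lists and 6 lay beside an RPG. The median percentile of the peaks was 45.3 and 41.2 for stand-alone gained ORFs, at a median fold of 1.50 and 1.45, and 41.3 and 38.4 for stand-alone lost ORFs in the WT lists, at 1.52 and 1.51. Peaks over gained RPGs were stronger, at a median percentile of 89.6 and 88.4, and those over gained ORFs beside an RPG had medians of 87.9 and 85.8. A peak of the other strain was absent from the whole ORF in both lists for 102 of the 240 gained and 121 of the 261 lost non-RPGs. The rest had part of the ORF under a peak in the other strain.

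**Figure D3:**
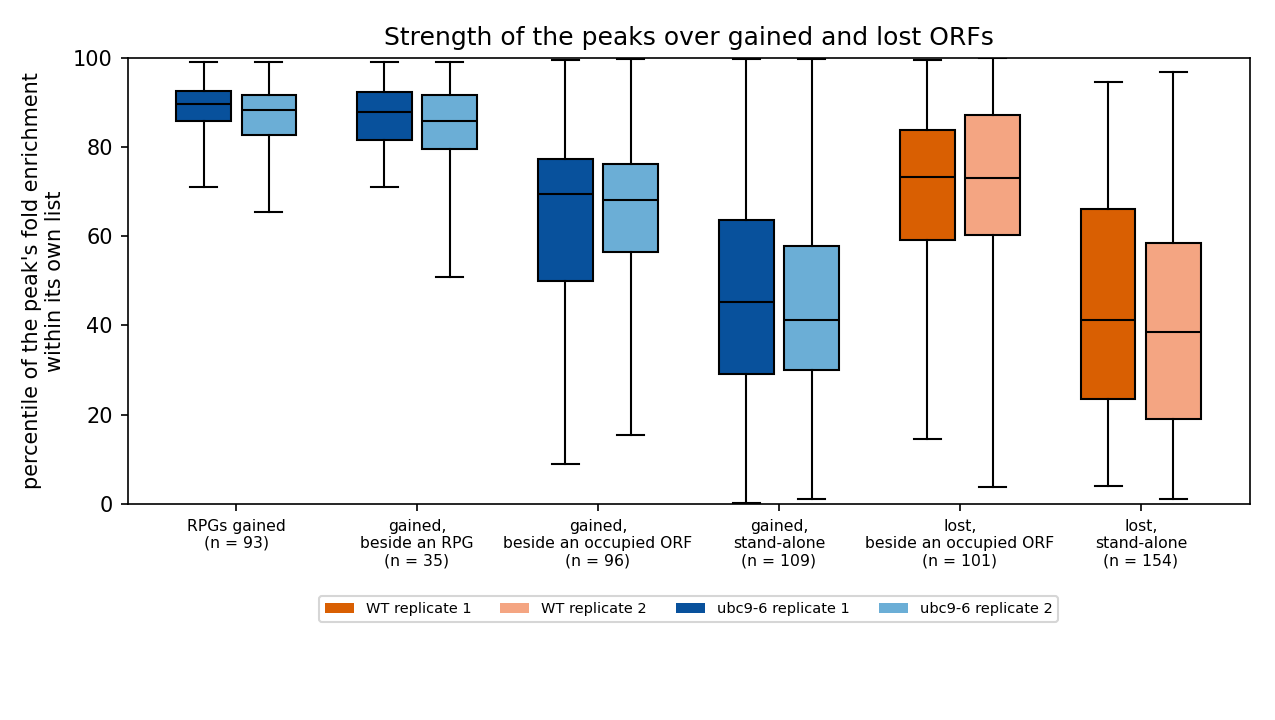
The percentile of each peak's fold enrichment within its own list (y axis) for gained ORFs in the *ubc9-6* lists (blue) and lost ORFs in the WT lists (orange), by what else lay under the peak. Boxes span the quartiles with the median, and whiskers the lowest and highest value. Peaks over gained RPGs and over gained ORFs beside an RPG have medians between 85.8 and 89.6, and stand-alone ORFs have medians between 38.4 and 45.3.

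The 10 stand-alone gained non-RPGs with the strongest peaks were *RPA34*, *ASC1*, *EFM3*, *NRD1*, *SEN2*, *SSB1*, *POP6*, *EFT2*, *FAA4* and *GDS1*. *EFM3* encodes a methyltransferase of elongation factor 2, *NRD1* an RNA-binding protein that ends short RNAPII transcripts, *SEN2* the tRNA splicing endonuclease, *POP6* a subunit of RNase MRP and RNase P, and *FAA4* a fatty acyl-CoA synthetase. Small nucleolar RNA genes lay under the peaks of 6 of the 10: *SNR128* and *SNR190* beside *RPA34*, *SNR24* in *ASC1*, *SNR3* at *EFM3*, *SNR79* at *SEN2*, *SNR46* at *POP6* and *SNR86* at *FAA4*. At *EFM3*, *SEN2* and *NRD1* the WT lists also held strong peaks, which covered less of the ORF. *EFM3* had shares of 0.348 and 0.412 against 0.65 and 0.607, at percentile 92.3 and 93.3 against 94.4 and 95. *NRD1* had shares of 0.264 and 0.330 against 1 and 1, at percentile 97.3 and 97.9 against 91.9 and 96.3. *GDS1*, which acts in histone acetylation at RPGs, had shares of 0 and 0 against 1 and 1 and no RNA gene under its peaks. Across all 109 stand-alone gained non-RPGs, 7 shared a peak with a small nucleolar RNA gene and 3 with a tRNA gene. RNAPII transcribes the small nucleolar RNAs, and their part in these calls was not tested.

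The strongest stand-alone lost non-RPGs were YJR128W, *IMD2*, *ARP10*, *MUP3*, *MET14*, *DID4*, *MRP17*, *SRD1*, *MET2* and YNL277W-A. *MET14*, *DID4* of endosomal sorting and *MRP17* lay under the same WT peaks, and YNL277W-A under the peaks of *MET2*, so these 5 names stand for 2 places. YJR128W shares its WT peaks with *SNR3*, next to the gained *EFM3*. Here the WT peaks covered all of YJR128W and also part of *EFM3* (0.348 and 0.412). The *ubc9-6* peaks covered none of YJR128W and more of *EFM3* (0.65 and 0.607). *SRD1* had covered shares of 0.511 and 0.551 against 0.341 and 0.371 and was lost by a narrow margin. Of the near-identical asparaginase copies, *ASP3-2* had shares of 0.568 and 0.788 against 0 and 0. Reads cannot be placed uniquely among these copies, which makes their calls uncertain.

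Peaks over stand-alone gained and lost ORFs lay on the gene body, which follows from the rule. The classes were defined by cover of the ORF, so the values at 400 bp are a description only. At 400 bp after the start codon, 90.8% and 92.7% of the 109 stand-alone gained non-RPGs lay under a *ubc9-6* peak, and 15.6% under a peak in each WT list. At the start codon itself the values were 71.6% and 78.9% against 32.1% and 37.6%. The stand-alone lost non-RPGs lay under a WT peak at 400 bp in 94.8% of cases in each list and under a *ubc9-6* peak in 7.14% and 5.84%. In ORFs occupied in all 4 lists, excluding RPGs, both *ubc9-6* values were below both WT values at the start codon. The *ubc9-6* replicates differed more from each other than replicate 2 did from the WT lists. At the start codon 95.9% and 97.0% of 1032 lay under a WT peak, against 84.9% and 92.8% in *ubc9-6*. The 4 lists lay between 97.0% and 98.3% at 400 bp.

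**Figure D4:**
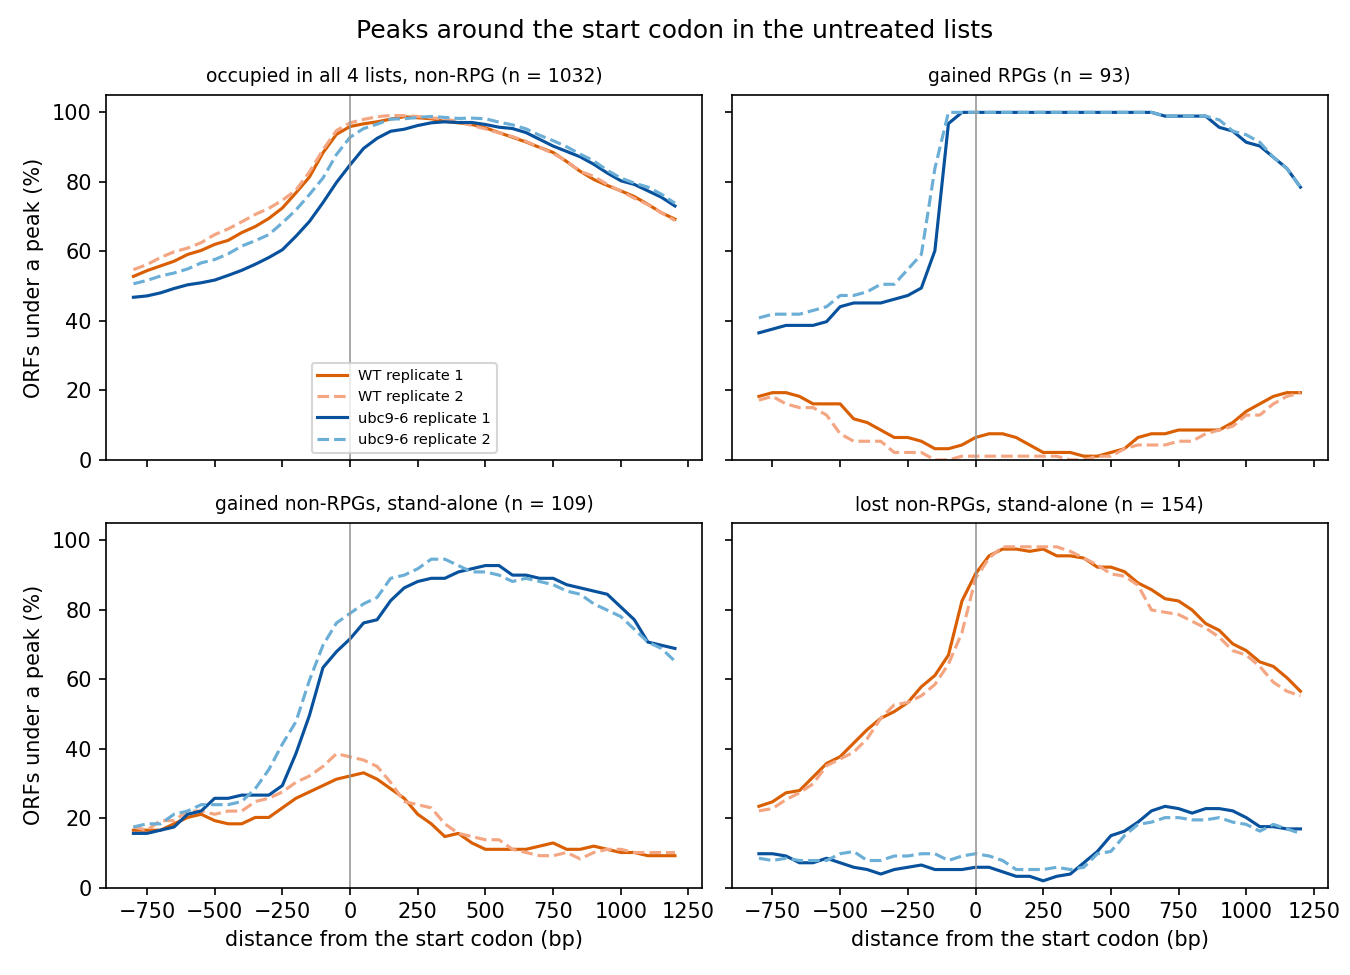
The percentage of ORFs under a peak (y axis) at each distance from the start codon (x axis, bp, negative upstream) in the 4 untreated lists, for 4 classes of ORF. The *ubc9-6* lines stand above the WT lines over the body of gained ORFs and below them for lost ORFs, and for ORFs occupied in all 4 lists they are lower up to the start codon and as high inside the ORF. The classes were defined by cover of the ORF, so the height inside the gained and lost classes follows from the rule.

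Calls were spread over the chromosomes. Between 2.25% (chromosome VI) and 8.62% (chromosome XIII) of the non-RPG ORFs that could be gained were gained, and between 3.85% (chromosome VI) and 37.0% (chromosome IX, 17 of 46) of those that could be lost were lost. Strains with the original *ubc9-1* allele are known to gain an extra copy of chromosome III, a tendency that the study states *ubc9-6* alleviates. On this chromosome 9 of 117 were gained and 11 of 39 lost, against 6.02% and 18.5% over all chromosomes. The number of copies was not measured.

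Strength within a list was compared for the 1050 ORFs occupied in all 4 lists. Each ORF was given the percentile of the fold of the peak that covers most of it, and strains were compared with limma across these ORFs with Benjamini-Hochberg adjustment. At an adjusted p under 0.05, 60 were higher in *ubc9-6* (5.71%) and 193 lower (18.4%). The median difference over all 1050 was -4.55 percentile points, since median percentiles were 76.3 and 77.4 in WT and 71.6 and 69.8 in *ubc9-6*. When percentiles were taken among the peaks that cover no RPG, a choice made after seeing the data, the median difference was 0.02 and the split was 64 higher (6.1%) and 79 lower (7.52%). Of the 60 higher ORFs, 57 were called higher again, and of the 193 lower ORFs 79 were called lower again. Without 1 list, the spread comes only from the pair of the other strain. Such a fit cannot show how far the calls rest on the list left out. The median difference was -4.31 points without *ubc9-6* replicate 1 and -4.42 without *ubc9-6* replicate 2. It was -4.96 and -3.55 without WT replicates 1 and 2. The 60 and 193 ORFs lay under 50 and 115 different peaks of *ubc9-6* replicate 1.

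Among the higher ORFs, *NOP10*, a protein of the H/ACA particle, had percentiles of 2.07 and 7.02 in WT and 62.5 and 66.6 in *ubc9-6*, a difference of 60.1 ± 7.07 (SE, limma adjusted p = 0.0159). *YPD1*, a phosphorelay protein of osmotic sensing, had 7.83 and 14.8 against 71.7 and 69.4, and *TSC13*, an enoyl reductase of fatty acid elongation, 15.3 and 6.56 against 69.9 and 61.2. The peak over *TSC13* in *ubc9-6* also held the gained *NOP1*. *PPH21* (a subunit of protein phosphatase 2A), *YCK1* (casein kinase I), *GPC1* and *YGK1* were also among the 10 non-RPGs with the largest rise, beside YMR141C, YBL029W and YHL015W-A, which have no known function. RPGs lay under the *ubc9-6* peaks of 6 of these 10, *RPL35B* and *RPL41B* with *PPH21*, *RPL24B* with *GPC1*, *RPL28* with *YGK1*, *RPL13B* and *RPS16A* with YMR141C, *RPL19B* with YBL029W and *RPS20* with YHL015W-A. Of all 47 higher non-RPGs, 21 had at least 0.5 of an RPG under their peaks in both *ubc9-6* lists, against 3 of the 193 lower ones, and the signal of the RPG and of its neighbor cannot be told apart there. Of the RPGs, 13 of 18 tested were higher and 0 lower. Translation initiation factors had a median difference of 11.1 points over 6 ORFs, 1 of them called.

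Among the lower ORFs, *SEC21*, a coat protein of vesicles that return from the Golgi, had percentiles of 83.7 and 89.3 in WT and 12.9 and 17.8 in *ubc9-6*, a difference of -71.1 ± 6.48 (SE, limma adjusted p = 0.0159). *IMP21*, a transcriptional activator, had 74.1 and 64.3 against 15.4 and 17.9, and *RIB5* and *RCF3*, riboflavin synthase and a mitochondrial protein that share their peaks, had 83.9 and 85.9 against 31.8 and 41.7. *SPG3*, *ATO2* and *DIF1* were the other named genes among the 10 largest falls. The other 3 of these 10, YLR227W-A, YLR227W-B and YGR161C-C, are ORFs of Ty retrotransposons. Of 71 Ty ORFs occupied in all 4 lists, 31 were lower and 1 higher, and their median difference was -29.1 points. With percentiles among peaks without RPGs 19 were lower and 1 higher. These ORFs are near-identical copies whose reads cannot be placed uniquely, and the group was added after its values were seen.

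Some of the metabolic groups that held lost ORFs also held lower ORFs among those that stayed occupied. Others did not, with 0 lower of 3 aromatic, of 2 lysine, of 7 branched-chain amino acid and of 2 guanine and pyrimidine genes. The shares over all 1050 ORFs were 18.4% lower, or 7.52% with percentiles among peaks without RPGs. Of the 10 sulfur genes occupied in all 4 lists, 6 were lower and 0 higher, with a median of -14.8 points. On the second scale the median was -8.83 and 4 were lower. *MET6* stood at percentile 99.7 and 99.2 in WT and at 86.2 and 80.7 in *ubc9-6* (-16.0 ± 2.19, SE, limma adjusted p = 0.0168), and *MET17* at 96.3 and 97.6 against 83.0 and 83.3. *SAM1* stood at 91.0 and 86.4 against 35.4 and 51.6. Of 4 arginine genes, 3 were lower under both scales, and *ARG1* stood at 94.0 and 94.5 against 59.3 and 43.6. Of 9 amino acid permeases, 6 were lower and 2 on the second scale, and *DIP5* stood at 92.6 and 97.5 against 48.0 and 56.4. Of 19 general stress genes, 6 were lower and 2 on the second scale, with medians of -10.5 and -5.52, so the second count is close to the share over all ORFs. *TFS1*, an inhibitor of carboxypeptidase Y, stood at 91.0 and 86.4 against 41.1 and 51.6. In WT it lay under the same peaks as *SAM1*, so the values of these genes are not independent. Genes of glycolysis, respiration and the proteasome had medians of -1.28, 1.69 and 0.18 points. Of the 16 glycolytic genes 5 rose, and 1 was called lower. Near the top of a list a percentile can hardly move, so these medians do not show an unchanged fold. *ENO1* differed by -3.97 points, at folds of 10.8 and 11.9 in WT against 4.20 and 4.94 in *ubc9-6*. *TDH3* had folds of 10.4 and 13.0 against 11.8 and 10.8. *TDH1* stood at percentile 99.3 and 99.6 against 48.4 and 81.0 and was not called.

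**Figure D5:**
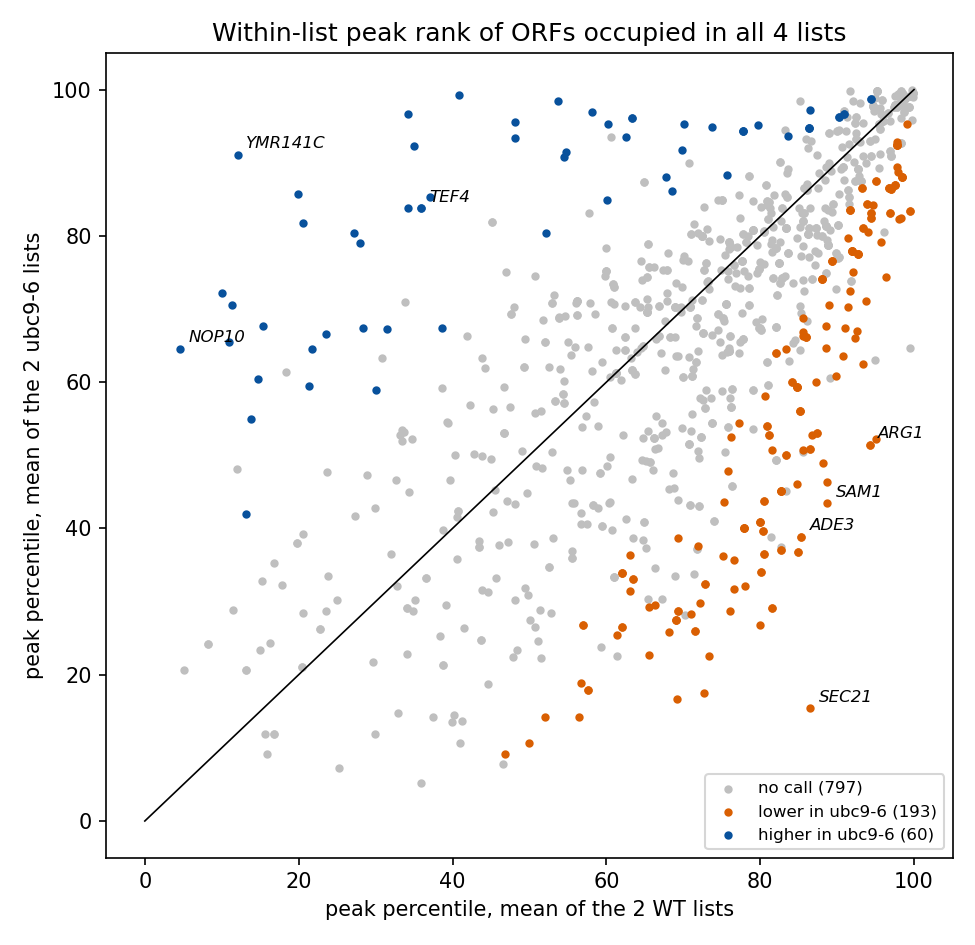
The percentile of the peak over each of the 1050 ORFs occupied in all 4 lists, as the mean of the WT lists (x axis) and of the *ubc9-6* lists (y axis). Points on the line are equal in both strains. The 60 higher ORFs (blue) lie above it and the 193 lower (orange) below it, with *SEC21* at 86.5 and 15.4.

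In cells of the same strains after heat shock, 185 of 4136 non-RPGs were gained (4.47%) and 162 of 1330 lost (12.2%). These lists share no sample with the untreated ones. Of the 240 gained without heat shock, 68 were gained with it, which is 28.3% of the first and 36.8% of the second list of ORFs. Of the 261 lost, 68 were lost again (26.1% and 42.0%), and 0 ORFs changed direction. By their heat shock WT lists, 217 of the 240 could be gained again and 182 of the 261 could be lost again. In the sulfur group 7 were lost after heat shock, and 6 of these were lost in both: *MET2*, *MET14*, *MET16*, *MET22*, *MET32* and *SUL2*. *MET8* was occupied in all 4 heat shock lists, with a covered share of 1 in each. Of the 12 gained ribosome biogenesis factors, 0 were gained after heat shock. *NOP1*, *NOP56*, *NOP58* and *RPA34* had a covered share of 0 in all 4 heat shock lists, so neither strain had a peak there, whereas *STM1* and *ASC1* were gained in both. *SSA4*, *GSY2*, *GLC3* and *TSA2* had a share of 1 in all 4 heat shock lists.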

How the data were processed

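The authors made RNAPII ChIP-seq libraries in independent duplicate from WT and *ubc9-6* cells. As the study's methods and the submitters' processing notes state, reads were trimmed, aligned to sacCer3 with Bowtie2 2.3.5, and called as broad peaks with MACS2 2.1.1.20160309 against input, with a q cut-off of 0.1. Each replicate was called on its own. The deposited lists hold, for every peak, the fold enrichment over input (a ratio) and the −log10 of p and of q that MACS2 gave the authors. The 8 input samples entered only through peak calling. The study's model of reads over ORFs needs reads and was not fitted here.

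Covered share was computed for 6002 protein-coding ORFs on 16 nuclear chromosomes of R64, with coordinates 1-based (Python 3.11.15). Fold was used as a percentile within a list, because folds depend on depth, which is unknown. Percentiles were compared with limma 3.58.1 in R 4.3.3 with a mean-variance trend. p-values measure the spread between the deposited replicates. The members and lists were chosen with earlier results of these data known. Of the names in the lists, 9 had no match. The rule for named genes took strain markers, genes the study names, up to 6 gained or lost members of a list, the 10 strongest stand-alone ORFs in each direction and the 10 largest rank differences in each direction. *SNR* genes, members of the added groups, RPG neighbors, and *MET6*, *MET13*, *MET17*, *SAM1*, *SAM2*, *MUP1*, *STR3*, *MET1*, *ARG1*, *DIP5* and *TFS1* were named after their values were seen, as were a few other members of lists. The rank fit was tested on simulated percentiles of 1050 ORFs. It recovered 34 of 50 ORFs planted at a shift of 30 points and 9 of 50 at 10 points, with 5 calls among ORFs that had no shift in the same data and 0 calls in data where none was planted. Alternatives covered the occupancy threshold, peak filters, the ranking scale and each list left out. Results for certain genes are not reported here.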

Additional observations from a re-analysis of the deposited data

Results flagged for a closer look

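The strain difference in occupied aminoacyl-tRNA synthetase ORFs had opposite signs with and without heat shock. Of 19 ORFs, 1 and 3 were occupied in untreated WT and 13 and 8 in untreated *ubc9-6*, a difference in means of 8.5. After heat shock 1 and 1 were occupied in WT and 0 and 0 in *ubc9-6*, a difference of -1. The second difference minus the first was -9.50, and it was not tested. The heat shock difference rests on 1 ORF.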

How the results depend on the processing

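The counts of gained and lost ORFs stayed within 1.5 times under occupancy thresholds of 0.25 and 0.8 and both peak filters. Leaving out 1 list gave 390 to 417 ORFs gained and 296 to 416 lost, and for non-RPGs 297 to 314 gained and 295 to 416 lost. The highest counts of lost ORFs came without WT replicate 2. Counting stand-alone ORFs only, an alternative added after seeing the data, gave 168 gained and 154 lost. The difference in occupied non-RPG ORFs kept its sign, and its leave-one-out range was -109.5 to -54.5.

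Rank calls were less stable. ORFs called higher ran from 0 to 160 and lower from 0 to 325 when 1 list was left out, where the lone list of a strain is assumed to vary like the pair of the other. With no trend 83 were lower, with median-centred log2 fold 68, and among peaks without RPGs 79. With replicate number as a block 294 were lower and 90 higher, and the difference in occupied non-RPG ORFs within replicate number was again -82.0. The labels share only a number, and the deviations of the first replicates from their group means had r = -0.02 across ORFs, so the numbers were not taken as pairs.

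Covered share turned for *STE4* (0.130 in *ubc9-6* minus WT with −log10 q of at least 5 and with the top 1000 peaks) and *PMR1* (-0.0542 and -0.306), and for *TOA2* (0.159 with the top 1000 peaks). Sulfur genes lost numbered 9 to 12 and ribosome biogenesis factors gained 10 to 13 over all alternatives, but elongation and release factors gained numbered 2 at an occupancy threshold of 0.25 and aminoacyl-tRNA synthetases gained 3 to 10. The lists carry no depth, so an ORF just under the peak threshold cannot be told from an empty one.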
